A study of Mus musculus with 4 samples.

Results

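The genes described here are 44 genes of the cell division cycle, chosen by symbol from a fixed list of 20 genes of S phase and 24 genes of G2 and mitosis. All 44 were found among the 30028 genes of the mouse lung single-cell count tables, and each had UMIs, from 433 for Ttk to 21394 for Pcna. UMIs (unique molecular identifiers) count captured RNA molecules. The tables come from 4 libraries of lung cells, 1 library per group, and every library combined the lung cells of 5 mice that were 11 weeks old. NW was wild type kept in normoxia, and NK was FUNDC1-KO kept in normoxia. HSW was wild type given HySu, and HSK was FUNDC1-KO given HySu. HySu is a mouse model of pulmonary hypertension in which mice breathe hypoxic air and receive SU5416, a VEGF receptor inhibitor, once a week in 3 doses. Both normoxia groups received the vehicle instead. Fundc1 encodes a receptor for mitophagy in the outer mitochondrial membrane. The series title speaks of endothelial deficiency, but the group labels name no Cre driver and no cell type for the deletion. Lungs were digested enzymatically and red cells were lysed, so shares of cells are shares of what survived this preparation. Because each group is 1 library, differences between groups have no replicate check, and no p-value was computed. Every bracketed range is an exact 95% interval that covers counting error only. For levels and ratios it takes UMIs as independent and leaves out the spread that comes from which cells were drawn.

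A cell that divides copies its DNA in S phase and separates the copies in mitosis, and the genes for each step are transcribed in waves. The first wave is driven largely by E2F factors and supplies the replication machinery. The second is driven largely through CHR and CCAAT promoter elements, bound by the MuvB complex with B-MYB and FOXM1 and by NF-Y, and supplies kinases, kinetochores and spindle proteins. In the adult lung most epithelial, stromal and endothelial cells are quiescent. Alveolar macrophages renew themselves locally, and activated lymphocytes divide.

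The 4 libraries held 4128 to 9164 cells with a median of 5355 to 7845.5 UMIs per cell. The lowest UMI count of any cell differed between libraries, from 3182 in NK to 4726 in HSK, so the smallest cells kept differ between libraries. Fundc1, the targeted gene, had 42.9 CPM (UMIs of the gene scaled to 1e6 UMIs of the library) in NW and 39.0 in HSW, against 0.876 in NK and 0.270 in HSK, low in both libraries labelled as knockout and over all lung cells together. Cells with markers of more than one lineage were removed before any value below, 10.5% to 25.9% of a library. The remaining cells were clustered without the cell cycle genes and named by fixed markers, so each class name means cells that are like that type. Libraries shared 20 to 70 cell barcodes in pairs. Of the 44 genes, 2 overlap another gene's exon on the same strand (Mcm7 and Top2a), 12 overlap a gene on the opposite strand, and 4 have named pseudogenes (Pcna, Tyms, Ccnb1 and Ccnb2), which could share reads with them.

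The promoters of both waves hold these elements at different rates. The 250 bases upstream of the start site, from RefSeq on GRCm38.p6, were at hand for 38 of the 44 members, in 43 windows. Shown first are the helicase subunits Mcm5 and Mcm6, with capitals marking the E2F motifs searched on both strands, overlaps included. One E2F motif was TTCCCGC. Another was TTGGCGC. The remaining motifs were TTCGCGC and also, on either strand, TTGCCGC. Then come the G2/M members Top2a, Mki67 and Cdk1, with capitals marking matches on both strands of CCAAT and of the CHR motif, searched as TTTGAA or with the alternative letters TTCGAA. These genes appear in the results below, but they are also the members richest in these motifs and not typical ones. Mcm5 and Mcm6 had the most E2F matches, 3 and 4. Top2a, Mki67 and Cdk1 had the most CHR matches, 4, 2 and 2. The Mki67 and Cdk1 windows also held 1 and 2 E2F matches, which are not in capitals. The windows of Tyms, Ccne1, E2f1, Lig1, Cdt1, Nusap1, Birc5 and Knstrn, also named below, held no E2F, CHR or CCAAT match.

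Mcm5 promoter, chr8:75109259-75109508, plus strand: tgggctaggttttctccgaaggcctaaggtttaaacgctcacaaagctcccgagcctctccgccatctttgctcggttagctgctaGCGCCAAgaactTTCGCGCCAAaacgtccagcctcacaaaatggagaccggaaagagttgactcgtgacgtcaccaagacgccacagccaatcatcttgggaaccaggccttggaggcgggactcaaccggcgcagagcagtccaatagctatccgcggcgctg

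Mcm6 promoter, chr1:128359706-128359955, minus strand: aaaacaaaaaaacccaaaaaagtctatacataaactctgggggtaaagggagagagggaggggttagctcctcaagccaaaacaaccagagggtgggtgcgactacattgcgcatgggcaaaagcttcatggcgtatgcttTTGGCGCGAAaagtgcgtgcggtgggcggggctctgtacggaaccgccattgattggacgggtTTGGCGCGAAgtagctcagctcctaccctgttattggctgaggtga

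Top2a promoter, chr11:99024190-99024439, minus strand: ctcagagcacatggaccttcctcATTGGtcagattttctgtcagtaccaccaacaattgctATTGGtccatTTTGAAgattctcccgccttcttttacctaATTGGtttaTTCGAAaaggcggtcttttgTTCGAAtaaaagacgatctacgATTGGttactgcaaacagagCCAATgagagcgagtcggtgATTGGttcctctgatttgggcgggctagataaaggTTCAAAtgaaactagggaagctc

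Mki67 promoter, chr7:135716380-135716629, minus strand: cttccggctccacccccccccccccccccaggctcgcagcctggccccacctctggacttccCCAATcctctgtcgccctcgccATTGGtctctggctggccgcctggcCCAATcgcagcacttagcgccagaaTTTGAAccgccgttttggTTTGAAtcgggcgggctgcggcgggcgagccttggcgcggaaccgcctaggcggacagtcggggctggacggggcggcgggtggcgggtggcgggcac

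Cdk1 promoter, chr10:69352913-69353162, minus strand: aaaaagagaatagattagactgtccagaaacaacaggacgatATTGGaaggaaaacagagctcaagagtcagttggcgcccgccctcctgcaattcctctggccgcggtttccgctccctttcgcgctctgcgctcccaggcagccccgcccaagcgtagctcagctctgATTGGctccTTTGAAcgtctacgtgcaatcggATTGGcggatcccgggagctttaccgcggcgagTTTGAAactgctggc

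An E2F motif was present in 10 of 21 S phase windows (47.6%), in 3 of 22 G2/M windows (13.6%) and in 7.89% of all 32851 windows. The pair of a CHR and a CCAAT motif was present in 14.3% of the S phase windows, in 40.9% of the G2/M windows and in 6.02% of all windows. A CCAAT motif, with or without CHR, was found in 57.1% and 86.4% of the windows, against 33.8% of all. These are matches of letters in a window and not measured binding.

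Summed over the 4 libraries, the level of the S phase and G2/M genes ranged widely among 20 cell classes. The level of a class is the UMIs of the members over all UMIs of the class, as CPM. The summed G2/M level was 2811 CPM in T and NK cells, 1317 in plasma cells, 1119 in type 1 conventional dendritic cells (cDC1), 898 in type 2 (cDC2) and 591 in alveolar macrophages. Vascular endothelium had 460 CPM, classical monocytes 108, alveolar type 2 cells 50.6, fibroblasts 48.8 and alveolar type 1 cells 28.8. Higher than any of these was a cluster of 50 cells led by Prss34 and haemoglobin genes, at 3605 CPM. The marker rule named it erythroid, a name that was replaced afterwards, and it is called the Prss34-led cluster here. Its 23 G2/M positive cells held a mean of 55.4 haemoglobin UMIs and its other cells 395, with a median of 0 in both, and 4 of the 23 carried at least 3 markers of the erythroid list. The summed S phase level followed a similar order, with 2394 CPM in the Prss34-led cluster, 1803 in T and NK cells, 1225 in cDC1, 843 in plasma cells, 801 in alveolar macrophages and 142 in alveolar type 2 cells. Over the 20 classes the Spearman correlation of both sums was 0.94, a description over classes that share libraries and depth.

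**Figure D1:**
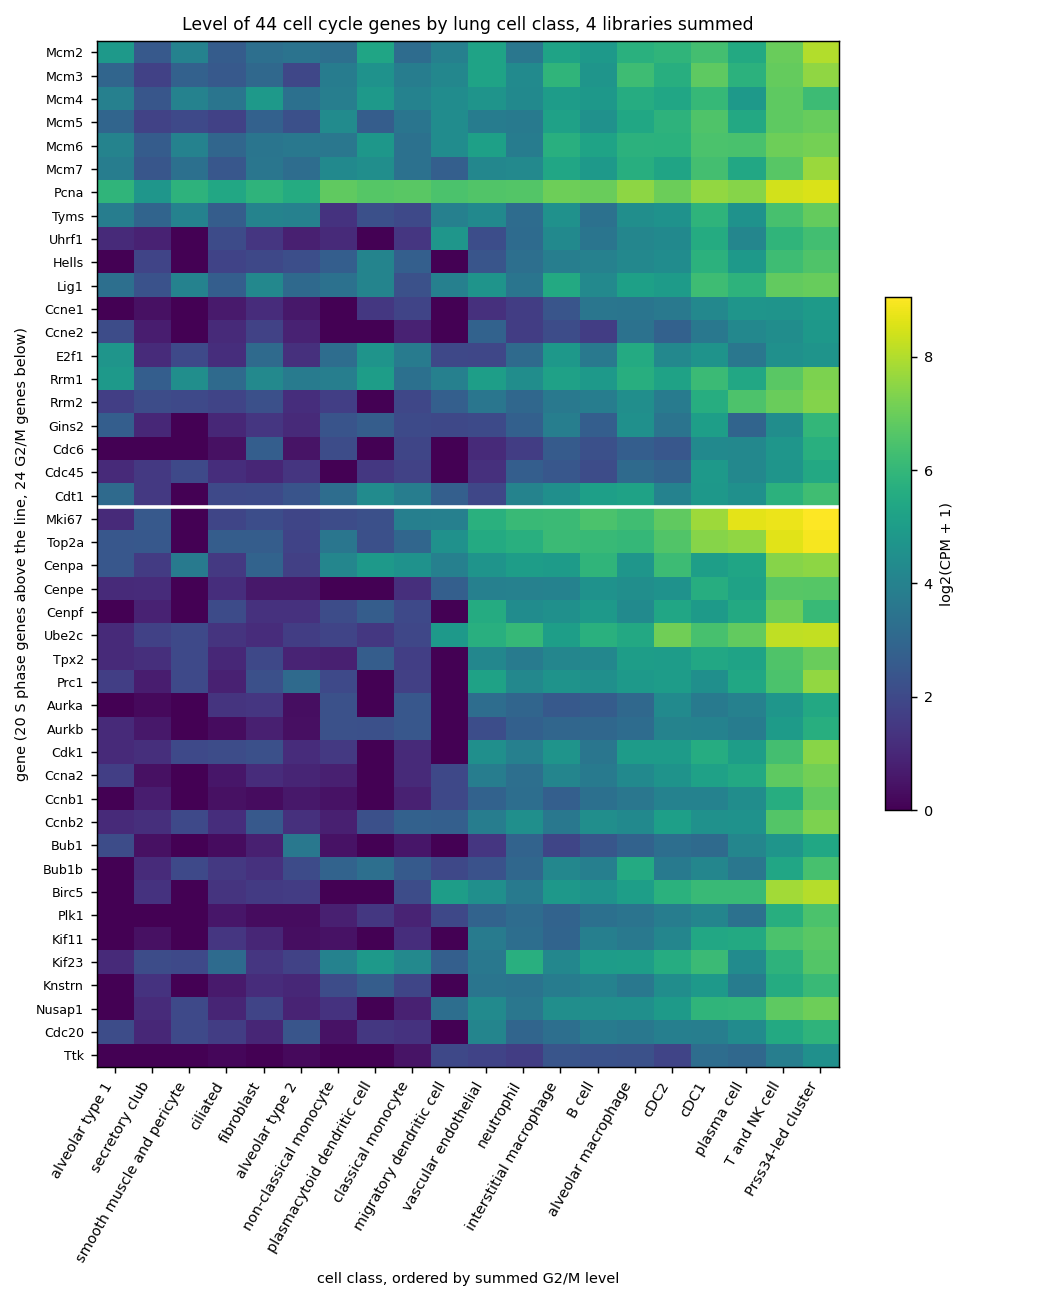
Level of each of the 44 genes (rows) in each lung cell class (columns, ordered by summed G2/M level), as log2(CPM + 1) with the 4 libraries summed. Color runs from dark at 0 to yellow at the highest level, and the right-hand columns (T and NK cells and the Prss34-led cluster) are bright for nearly all genes, while alveolar macrophages stand out for E2f1 and Bub1b.

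Most members followed one order. For 18 of the 20 S phase genes and 22 of the 24 G2/M genes the Prss34-led cluster was highest, and mostly T and NK cells came next. Mki67, the proliferation marker that coats mitotic chromosomes, had 528 CPM [462, 600] there, 438 [423, 454] in T and NK cells and 404 in plasma cells, against 33.5 in the median class. Top2a, the topoisomerase that untangles sister chromatids, had 490 [427, 559], 402 [387, 417] and 186 CPM in the same classes. Ube2c, the ubiquitin-conjugating enzyme of the anaphase promoting complex, had 293 [245, 348] and 292 [279, 305] CPM in the 2 leading classes, which did not differ beyond counting error. Rrm2, the ribonucleotide reductase subunit that limits DNA precursor supply, had 162 [127, 205] and 124 [116, 132] CPM, against 6.41 in the median class. Pcna, the sliding clamp of the replication fork, was spread more evenly, with 372 [318, 434] and 340 [327, 354] CPM in the leading classes, 103 in the median class and 26.2 in club cells, the lowest.

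By role, the 6 helicase subunits (Mcm2 to Mcm7) lay between 104 and 132 CPM in T and NK cells. There the chromatin factors Uhrf1 and Hells, a remodelling helicase, had 60.2 and 74.4 CPM, Lig1 117 and Rrm1 106. Of the mitotic cyclins and kinases, Ccna2 had 111 CPM, Ccnb2 98.2, Cdk1 80.7, Plk1 50.3, Ccnb1 48.6, Aurkb 30.5 and Aurka 25.8. Of the spindle genes, Nusap1 had 112, Tpx2 92.9, Prc1 88.9 and Kif11 87.6 CPM, and of the kinetochore genes Birc5 had 221, Cenpa 170 and Knstrn 46.2. Cdc20, which activates the anaphase promoting complex, had 44.6 CPM, and the checkpoint kinases Bub1 and Ttk had 25.4 and 13.5. Transcript length and capture were not corrected for, so these values are read within a gene and not between genes.

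A few members departed from that order. Mcm4, Cenpe and Cenpf were highest in T and NK cells, at 112 [104, 120], 104 [96.3, 112] and 132 [123, 141] CPM. For Cenpe, a kinetochore motor, the interval overlapped that of the Prss34-led cluster, 99.3 [72.1, 133]. E2f1, the transcription factor that starts the G1/S program, was highest in alveolar macrophages, at 44.8 CPM [43.1, 46.6], followed by interstitial macrophages at 27.0 [21.7, 33.2]. Bub1b, a kinase-like component of the spindle checkpoint, had its second-highest level in alveolar macrophages, 45.5 CPM [43.8, 47.3], close to the 40.3 CPM of T and NK cells, although the summed G2/M level of those macrophages was 591 CPM against 2811.

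Counting cells rather than UMIs gave the share of each class that carried several of these genes. Each cell was thinned to 4000 UMIs so that libraries of different depth could be compared, and a cell with UMIs from at least 3 G2/M genes was called G2/M positive, likewise for S phase. No cell was shallower than that in the HySu libraries. In NW and NK, thinning left out 17 and 111 alveolar macrophages, 28 and 186 T and NK cells, and 4 and 68 endothelial cells. G2/M positive cells made up 47.9% of the Prss34-led cluster, 33.9% of T and NK cells, 29.2% of plasma cells, 17.6% of cDC1, 7.97% of cDC2, 6.23% of alveolar macrophages and 3.57% of vascular endothelial cells. For comparison, shares were read from cells that hardly divide, which can carry free RNA of other cells. The share was 0.200% in alveolar type 2 cells (8 of 4001) and 1.42% in the neutrophils led by Retnlg and Cxcr2 (5 of 351). The 8 positive alveolar type 2 cells held a mean of 13.5 G2/M UMIs against 0.1495 in the others, and whether they divide, are doublets or carry free RNA was not tested. None of 110 alveolar type 1 cells and none of 80 plasmacytoid dendritic cells was positive, which allows shares of up to 2.73% and 3.75%.

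S phase and G2/M genes were seen together in different proportions. Of alveolar macrophages, 18.8% were positive for S phase genes alone, 4.89% for both and 1.34% for G2/M alone. Of T and NK cells, 10.8% were positive for S phase alone, 28.8% for both and 5.08% for G2/M alone. Without thinning the positive shares were 46.2% (S phase) and 13.1% (G2/M) in alveolar macrophages and 42.7% and 31.6% in T and NK cells. The S phase call has many cells near its threshold in alveolar macrophages, with 805 cells at 2 genes and 373 at 3, so that share is read with the threshold in mind. The G2/M call had 291 and 67 such cells in alveolar macrophages, 50 and 30 in T and NK cells, and 5 and 0 in endothelium.

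**Figure D2:**
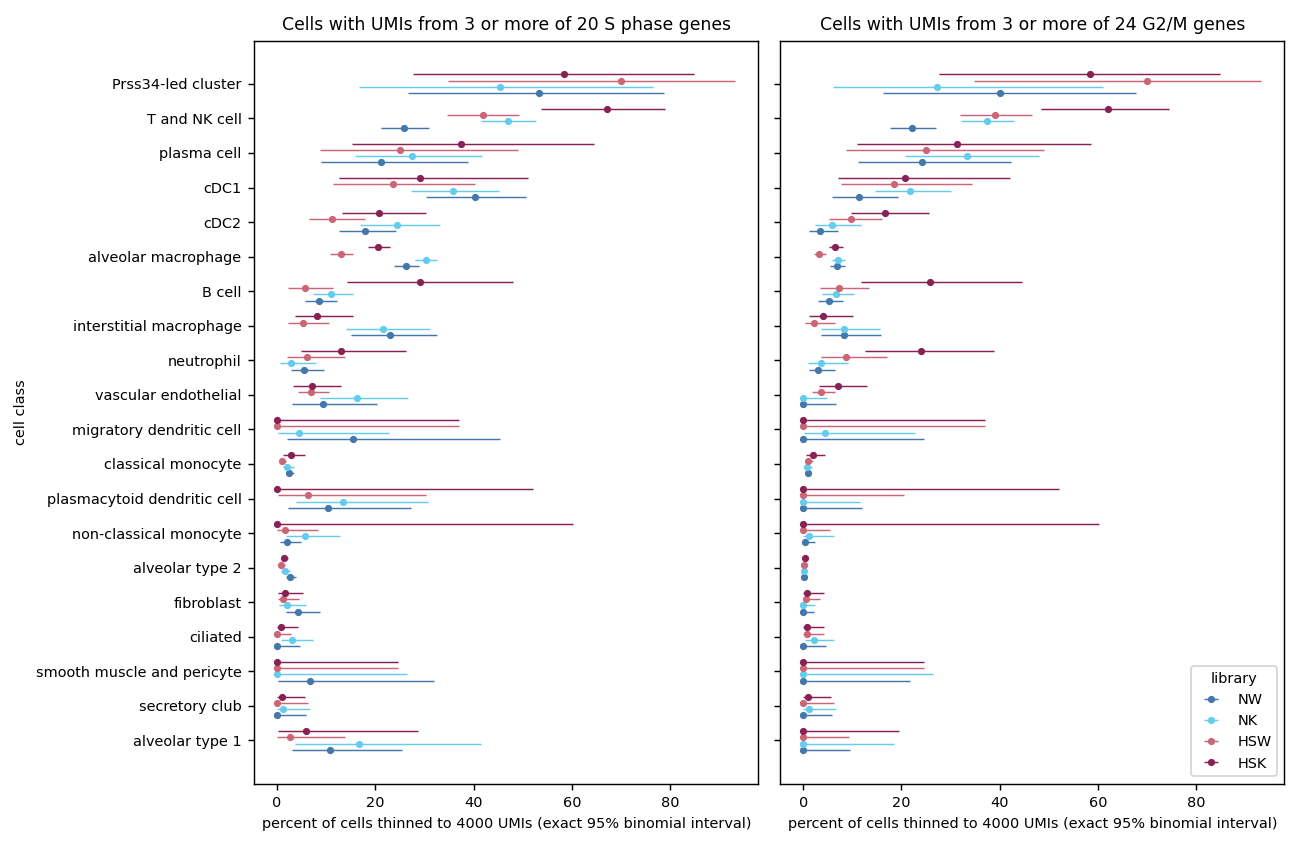
Percent of cells with UMIs from at least 3 S phase genes (left) or at least 3 G2/M genes (right) after thinning to 4000 UMIs, by cell class (vertical axis) and library (color), with exact 95% binomial intervals. T and NK cells of HSK sit at 62.1% for G2/M against 22.1% in NW, while endothelial cells are at 0 in both normoxia libraries.

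The G2/M UMIs sat in few cells. A G2/M positive T or NK cell held on average 30.7 G2/M UMIs after thinning and every other cell of that class 0.563, so that positive cells held 96.5% of the G2/M UMIs of the class. The values were 24.3 against 0.492 UMIs (76.7%) in alveolar macrophages and 47.5 against 0.152 (92.0%) in endothelium. In alveolar type 2 cells positive cells held only 15.3%. S phase UMIs were less concentrated, since positive cells held 77.1% of them in T and NK cells and 26.3% in alveolar macrophages.

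Gene by gene, the share of UMIs found in cells that carried at least 3 other G2/M genes differed among the members. It measures company with G2/M genes, so an S phase gene read in cells before G2 scores low by construction. For the G2/M genes its median was 82.0%, and it was highest for Ccna2, cyclin A2, at 93.6%, and 93.0% for Ube2c. It was 85.6% for Top2a and 81.4% for Mki67. The lowest G2/M values were those of Bub1b (30.5%), Kif23, a motor of the central spindle (44.8%), the centromeric histone Cenpa (53.4%), the kinase Aurkb (55.5%) and the checkpoint kinase Bub1 (56.0%). For the S phase genes the median was 39.7%. Rrm2 reached 84.9%, Uhrf1, which maintains DNA methylation at the fork, 63.6%, and cyclin E2 (Ccne2) 62.6%. E2f1 was lowest at 14.1%, with Cdt1, a licensing factor, at 22.1% and Pcna at 22.3%.

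**Figure D3:**
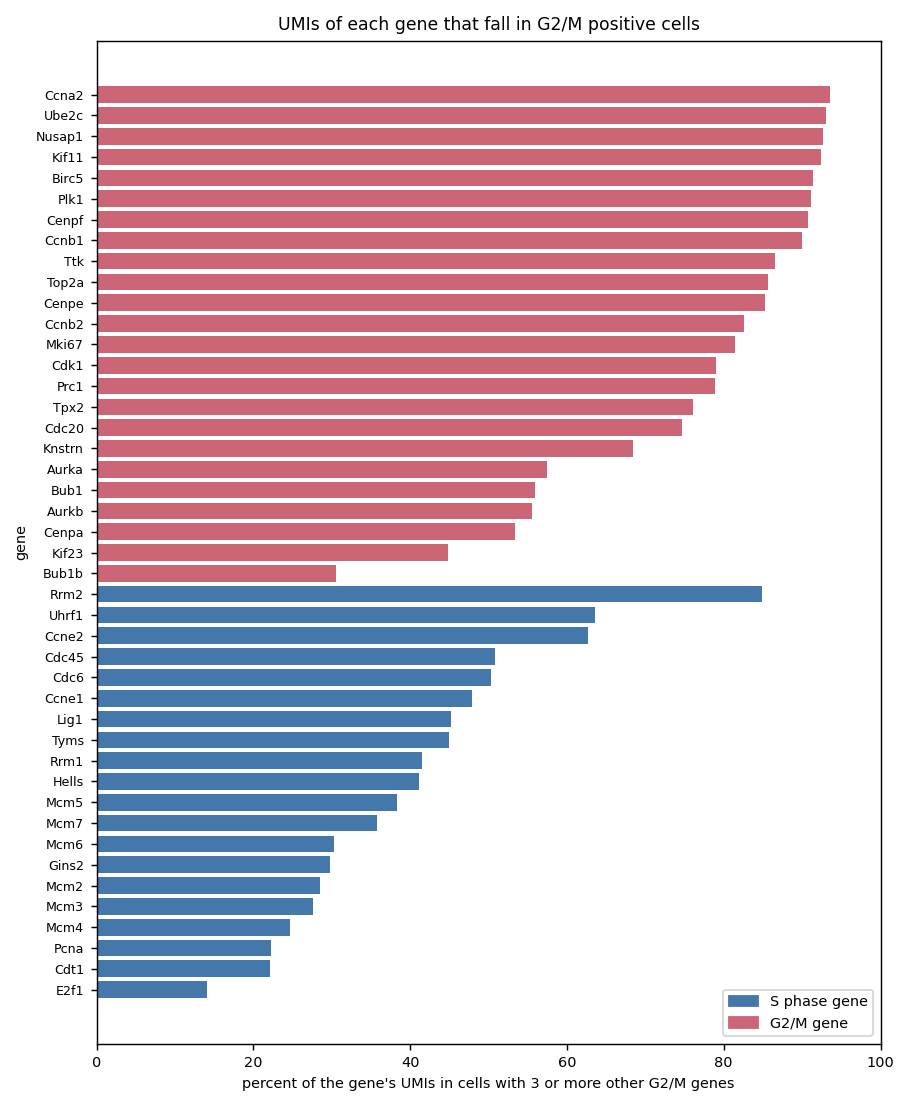
For each of the 44 genes (bars), the percent of its UMIs that lay in cells with UMIs from at least 3 other G2/M genes, all libraries and classes together. Bars of G2/M genes lie mostly above those of S phase genes, with Bub1b at 30.5% the lowest G2/M gene and Rrm2 at 84.9% the highest S phase gene.

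Some members were also found in cells without other G2/M genes, in particular classes. In thinned cells with no UMI of any other G2/M gene, Bub1b had 36.0 CPM in alveolar macrophages against 3.09 in the median of 19 classes, and E2f1 had 40.4 CPM in alveolar type 1 cells and 38.4 in alveolar macrophages against 8.20. Kif23 had 51.6 CPM in neutrophils and 41.2 in cDC1 against 9.10. Bub1 had 10.3 CPM in alveolar type 2 cells, where the median class had 0. Over all alveolar type 2 cells Bub1 had 17.3, 14.6, 7.95 and 7.17 CPM in NW, NK, HSW and HSK, while Mki67 had 0.910, 4.05, 2.70 and 3.15. Bub1 was lower there in both HySu libraries than in both normoxia libraries, and Mki67 was lowest in NW. Many other genes of alveolar type 2 cells were also lower under HySu. Their median log2 ratio was -0.46 (HSW/NW) and -0.59 (HSK/NK), and 38.1% and 50.7% of all genes measured were at least 1.5-fold lower. The direction of Bub1 is therefore not read as particular to that gene.

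Within classes, positive cells belonged to particular clusters. Among T and NK cells, the cluster led by Trbc2, Cd3d and Trbc1 (genes of the T cell receptor complex) was 39.3% G2/M positive and the cluster led by Gzma and Klra8 (genes of killer cells) 8.86%. Among B cells, the cluster led by Ighd was 2.28% positive and that led by Ms4a1 and Ly6d 13.6%. Among neutrophils, the cluster led by Camp, Ngp and Ltf, granule genes of immature neutrophils, was 26.7% positive. These clusters were found without the cell cycle genes. At least 3 markers of their own class were carried by 307 of 307 positive alveolar macrophages, 23 of 23 interstitial macrophages, 19 of 19 endothelial cells, 295 of 300 T and NK cells and 34 of 35 plasma cells. The counts were lower in cDC1 (38 of 49), neutrophils (21 of 28), B cells (36 of 51) and cDC2 (9 of 42). Among the negative cells of these classes they were 182 of 230, 408 of 409, 557 of 689 and 112 of 485.

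In all, 4 comparisons of libraries follow from the design. HSW against NW and HSK against NK set HySu against normoxia within a genotype, and NK against NW and HSK against HSW set FUNDC1-KO against wild type within a treatment. Each library enters 2 of them, so they are not independent. A gene was called higher or lower when its CPM differed at least 1.5-fold with at least 20 UMIs in the pair. That filter admits a sparse gene through the library where it is high, so in small classes the counts over measured genes only describe those genes. For scale, the median log2 ratio of all genes measured was away from 0 in the HySu pairs, -0.24 (HSW/NW) and -0.33 (HSK/NK) in alveolar macrophages and -0.33 and -0.48 in T and NK cells, and within 0.1 of 0 in the knockout pairs of these classes.

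In alveolar macrophages the S phase genes were lower in the HSW library than in any other. Their summed level was 865 CPM (NW), 996 (NK), 497 (HSW) and 744 (HSK), a HSW/NW ratio of 0.574 [0.557, 0.593] and a HSK/HSW ratio of 1.497 [1.45, 1.55]. The summed G2/M level was 536, 757, 416 and 589 CPM, with ratios of 0.775 [0.748, 0.804] and 1.42 [1.37, 1.47]. G2/M positive cells were 6.88% in NW (79 of 1148), 7.17% in NK (114 of 1590), 3.25% in HSW (29 of 893) and 6.56% in HSK (85 of 1296). The HSW library was therefore lowest for S phase, for G2/M and for the share of cells. The UMIs of each positive cell did not follow that order, at 21.6, 27.6, 28.6 and 20.8 G2/M UMIs in NW, NK, HSW and HSK. When cells were clustered with the cell cycle genes included, only 1.39% of alveolar macrophages over all libraries were G2/M positive and the HSK/HSW ratio of the G2/M sum was 1.12.

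In HSW against NW, 16 of 20 S phase genes and 4 of 24 G2/M genes were lower and none was higher, where 17.8% of all genes measured were lower. The median log2 ratio was -0.95 for the S phase genes and -0.41 for the G2/M genes, beside -0.24 for all. With TMM scaling 1 G2/M gene rather than 4 was lower. Ccne2, which activates CDK2 at S phase entry, had 10.8 CPM (NW), 12.9 (NK), 3.20 (HSW) and 9.42 (HSK), a HSW/NW ratio of 0.30 [0.20, 0.43]. Mcm5, a subunit of the replicative helicase, had 48.9, 51.4, 17.8 and 36.4 CPM, a ratio of 0.36 [0.31, 0.43]. Cdc6, which loads that helicase on origins, had 7.26, 4.80, 2.66 and 6.44 CPM, a ratio of 0.37 [0.24, 0.55]. For all 3 the HSW library was lowest. Of the G2/M genes, Cenpe had 20.7, 33.1, 11.1 and 15.1 CPM (ratio 0.54 [0.43, 0.66]), Top2a 58.8, 96.1, 34.4 and 58.2 (0.58 [0.52, 0.66]) and Ccna2 16.8, 25.4, 10.3 and 18.6 (0.61 [0.49, 0.77]). Members that stayed near their NW level in HSW included Tyms, thymidylate synthase, at 17.2, 20.7, 19.4 and 27.4 CPM, Gins2, a helicase activator, at 22.2, 19.9, 19.4 and 28.1, and Birc5, survivin, at 25.9, 36.6, 28.0 and 39.3.

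In HSK against HSW, 13 of 20 S phase genes and 9 of 24 G2/M genes were higher and none lower, where 7.15% of all genes were higher. The S phase median was 0.78 and the G2/M median 0.54, beside -0.01 for all genes. The largest ratios among S phase genes were those of Ccne2 (2.95 [2.03, 4.38]), Cdc6 (2.42 [1.59, 3.77]) and Ccne1, cyclin E1, with 11.5, 11.4, 5.24 and 11.8 CPM (2.25 [1.67, 3.08]). Among G2/M genes, Nusap1, which bundles spindle microtubules, had 16.8, 25.9, 13.9 and 27.5 CPM (1.97 [1.64, 2.38]). E2f1 did not follow its wave, with 52.6, 58.7, 29.5 and 32.8 CPM, so that both HySu libraries were lower than both normoxia libraries.

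In NK against NW, 8 of 24 G2/M genes were higher, where 9.29% of all genes were. Lower was 1 S phase gene, Cdc6 (0.66 [0.49, 0.89]), where 4.87% of all genes were lower. The G2/M median was 0.48 and the S phase median 0.18, beside 0.07 for all genes. Kif11, the motor that separates spindle poles, had 9.12, 18.5, 6.30 and 9.95 CPM in NW, NK, HSW and HSK, a NK/NW ratio of 2.03 [1.66, 2.50]. Mki67 had 69.8, 102, 52.3 and 72.6 CPM. For both genes NK was highest and HSW lowest. With TMM scaling 5 rather than 8 G2/M genes were higher. In HSK against NK, 4 S phase and 6 G2/M genes were lower, where 27.8% of all genes were. The summed ratios were 0.747 [0.729, 0.765] and 0.778 [0.757, 0.800], and the medians of -0.38 and -0.29 lay close to the -0.33 of all genes. With TMM scaling 1 S phase and 2 G2/M genes were lower.

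**Figure D4:**
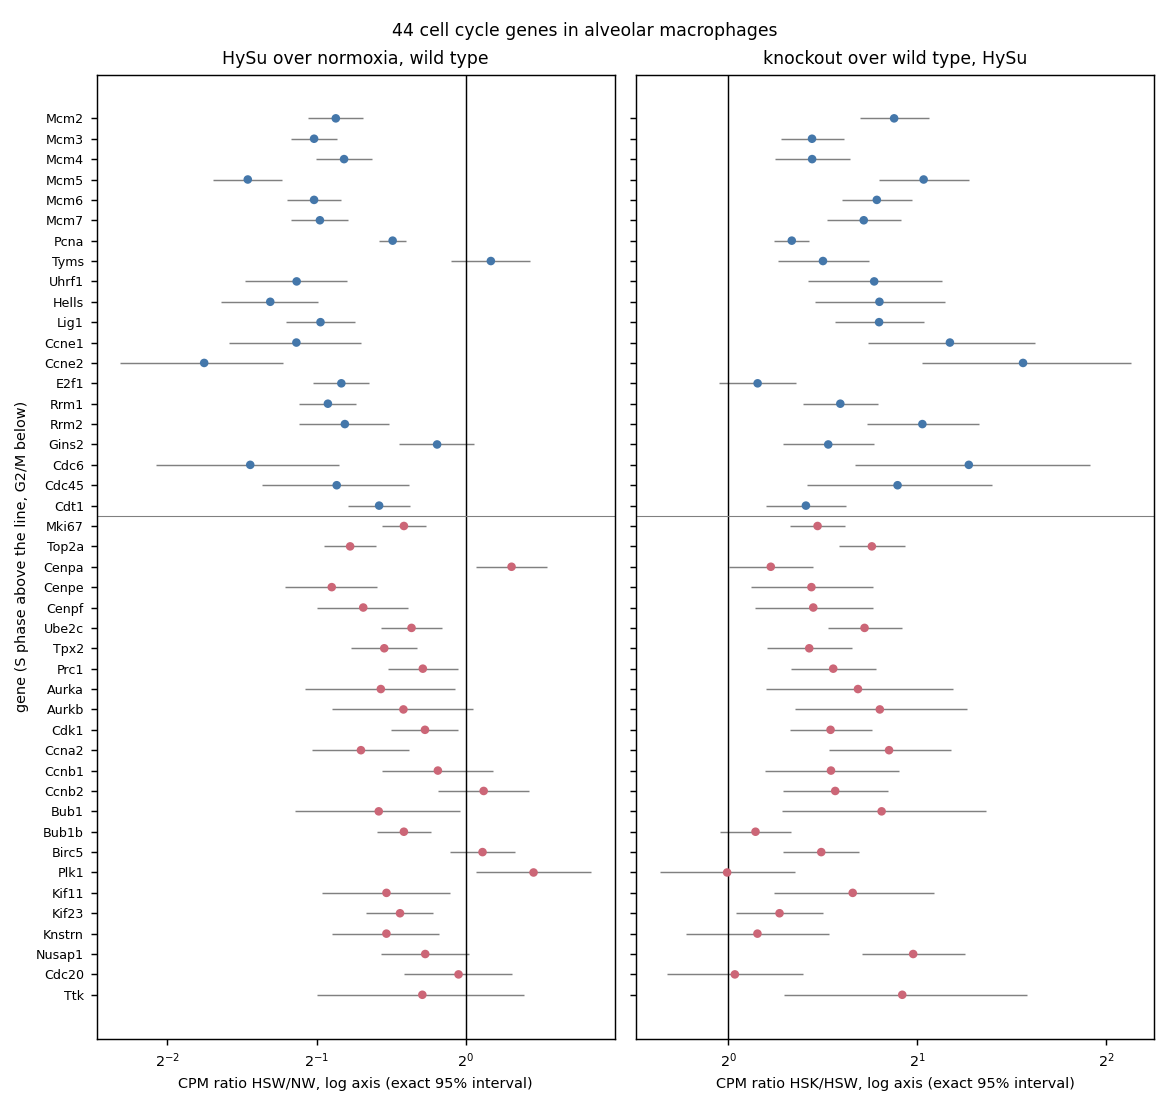
CPM ratio in alveolar macrophages for each of the 44 genes (vertical axis), HSW against NW on the left and HSK against HSW on the right, on a log axis with exact 95% intervals. Nearly all S phase genes lie below 1 on the left and above 1 on the right, and both panels share the HSW library.

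The class holds several clusters, whose shares differed between libraries. The cluster led by Gdf15 and Cxcl3 made up 47.6%, 35.7%, 30.1% and 25.8% of alveolar macrophages in NW, NK, HSW and HSK. Within it the S phase sum was 1008, 1060, 564 and 1022 CPM, and the G2/M sum was 660, 803, 663 and 847. Within the cluster led by Ear1 and Marco the S phase sum was 718 CPM (NW), 978 (NK), 512 (HSW) and 618 (HSK), and the G2/M sum 252, 452, 193 and 502. Within the cluster led by Ear2 and Ltc4s the sums were 665, 928, 390 and 643 for S phase and 499, 1033, 390 and 454 for G2/M. The S phase level was thus lowest in HSW within each of these clusters, while the G2/M level in the first cluster was as high in HSW as in NW.

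T and NK cells had their lowest levels in NW and their highest in HSK, for both waves. The summed G2/M level was 1896 CPM (NW), 3068 (NK), 3126 (HSW) and 5274 (HSK). The ratios were 1.65 [1.58, 1.72] for HSW/NW, 1.62 [1.56, 1.68] for NK/NW, 1.69 [1.60, 1.78] for HSK/HSW and 1.72 [1.64, 1.80] for HSK/NK. The S phase sum was 1373, 2010, 1847 and 2715 CPM. G2/M positive cells were 22.1% of the class in NW (71 of 321), 37.5% in NK (121 of 323), 39.1% in HSW (72 of 184) and 62.1% in HSK (36 of 58). The G2/M UMIs per positive cell were similar in all libraries, at 30.7, 33.4, 27.2 and 28.6, so the libraries differed in how many cells were positive.

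Of the 24 G2/M genes, 15 were higher in HSW/NW, 16 in NK/NW, 18 in HSK/HSW and 15 in HSK/NK, where 9.47%, 12.5%, 12.5% and 12.5% of all genes were higher. Of the 20 S phase genes, 5, 9, 5 and 9 were higher, and with TMM scaling 12 rather than 5 in HSW/NW. Lower were 1 S phase gene in HSW/NW, 1 G2/M gene in HSK/HSW, and 3 S phase genes and 1 G2/M gene in HSK/NK. Of all genes, 36%, 21.2% and 47% were lower in these pairs. Ube2c had 165 CPM (NW), 295 (NK), 381 (HSW) and 712 (HSK). Cdk1, the kinase that drives entry into mitosis, had 45.2, 66.1, 129 and 230 CPM, with a ratio of 2.85 [2.22, 3.66] for HSW/NW and 3.49 [2.71, 4.47] for HSK/NK. Both genes rank the libraries in the same order, with HSK highest. Tyms had 47.3, 51.2, 150 and 318 CPM, with ratios of 3.18 [2.51, 4.04] and 6.20 [4.88, 7.89] for the HySu pairs, and little difference between NK and NW. Mcm3 differed in its pattern, with 85.8, 167, 84.7 and 101 CPM, highest in NK. E2f1 had 22.4, 27.2, 13.9 and 16.1 CPM, with lower values in both HySu libraries. These values rest on few UMIs under HySu, so the difference is not set beside that in alveolar macrophages. The median log2 ratio of all genes was itself -0.33 (HSW/NW) and -0.48 (HSK/NK) in this class. Aurka, a spindle pole kinase, had 14.1, 34.6, 27.0 and 29.9 CPM, lowest in NW. The same held for Cdc45, part of the active helicase, at 11.6, 27.9, 34.7 and 53.0 CPM, and for Rrm2, at 71.3, 146, 148 and 200 CPM. Both rank NW lowest and HSK highest. Within HySu, Kif23 had the largest HSK/HSW ratio of the G2/M genes, 2.78 [1.87, 4.12].

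These values carry limits of number and depth. The class held 349, 509, 184 and 58 cells, and the cluster led by T cell receptor genes made up 284, 398, 167 and 46 of them. Within that cluster the G2/M sum was 2113, 3786, 3261 and 6103 CPM and the positive share 25.7%, 46.1%, 40.7% and 73.9%, the same order but for NK and HSW. Restricted to cells above 4726 UMIs, the highest of the libraries' lowest counts, the HSK/NK ratio was 1.38 for G2/M and 1.19 for S phase. Markers of club cells summed to 2635, 1803, 3505 and 22492 CPM in T and NK cells, highest in HSK. All 5 of these markers were detected in each library, and their part in the result was not tested.

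**Figure D5:**
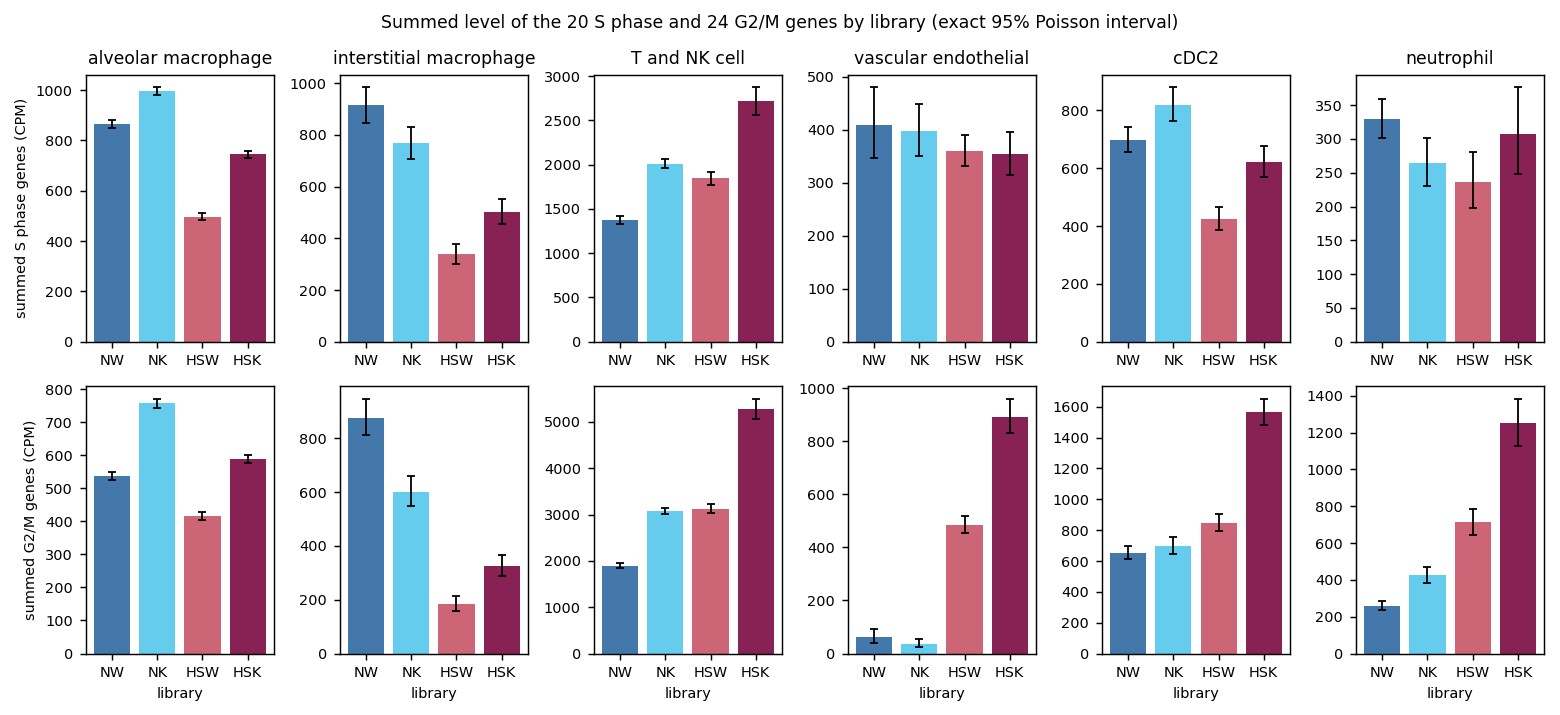
Summed level of the 20 S phase genes (top) and the 24 G2/M genes (bottom) in CPM for 6 cell classes, by library (NW, NK, HSW, HSK), with exact 95% Poisson intervals. G2/M bars of T and NK cells reach 5274 CPM in HSK, endothelial G2/M bars are near 0 in normoxia, and interstitial macrophage bars are lowest in HSW.

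Vascular endothelium showed G2/M genes almost only in the HySu libraries. The intervals of its S phase ratios included 1, although this depended on which cells were counted. The summed G2/M level was 62.8 CPM (NW), 36.4 (NK), 486 (HSW) and 894 (HSK). The HSW/NW ratio was 7.75 [5.13, 12.3], the HSK/NK ratio 24.5 [16.2, 39.0] and the HSK/HSW ratio 1.84 [1.66, 2.03]. The S phase sum was 409, 397, 360 and 354 CPM, and the interval of each of its 4 ratios included 1 (HSW/NW 0.879 [0.735, 1.06]). G2/M positive cells were 0 of 54 in NW and 0 of 74 in NK, which allow shares of up to 5.56% and 4.05%, 10 of 277 in HSW (3.61%) and 9 of 127 in HSK (7.09%). The HySu values therefore rest on 19 cells, with a mean of 47.5 G2/M UMIs per cell after thinning. These cells held 93.1% (HSW) and 94.9% (HSK) of the G2/M UMIs of the class. The intervals of the G2/M ratios leave out the draw of so few cells and are too narrow for that reason. By cells, the HSW share lay within the 5.56% allowed in NW.

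The number of G2/M genes called higher was 14 of 16 measured in HSW/NW, 16 of 16 in HSK/NK and 13 of 20 in HSK/HSW, where 16.6%, 14% and 7.98% of all genes were. NW and NK each held 23 UMIs over all G2/M genes, so genes passed the 20-UMI filter almost only through the HySu library. In HSW/NW and HSK/NK, 7 and 6 of the 16 genes had 0 UMIs in a library of the pair. The counts for these pairs were thus largely fixed by the filter, and nothing is drawn from them. Normoxia held too few UMIs of any G2/M gene for a count in NK/NW. Prc1, which bundles the microtubules of the spindle midzone, had 1, 2, 50 and 75 UMIs in NW, NK, HSW and HSK. Nusap1 had 0, 0, 41 and 28 UMIs, and Tpx2, a spindle assembly factor, 0, 0, 29 and 33. Knstrn, a kinetochore adaptor, had 0, 1, 9 and 27 UMIs, a HSK/HSW ratio of 6.09 [2.78, 14.7]. All of these were at or next to 0 in normoxia. Of the S phase genes, Pcna had 92.8, 91.8, 96.1 and 95.2 CPM, level across libraries, and Mcm2 had 65.5, 34.8, 31.8 and 36.4, highest in NW. Lig1, the ligase that seals the lagging strand, had 2, 16, 53 and 17 UMIs. Of the 11 S phase genes measured in HSW/NW, 3 were higher and 4 lower, where 16.6% of all genes were higher and 20% lower.

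The positive endothelial cells carried a median of 8 of 8 endothelial markers. Haemoglobin RNA was present with at least 10 UMIs in 3 of the 10 positive HSW cells and in none of the 9 positive HSK cells. Over all endothelial cells it was present at that level in 9 of 277 (HSW) and 4 of 127 (HSK), so it was more frequent in the positive HSW cells. After thinning, positive cells held a mean of 208.8 haemoglobin UMIs and other endothelial cells 15.7, with a median of 0 in both. Without cells of at least 10 haemoglobin UMIs the G2/M HSW/NW ratio was 7.01 [4.50, 11.5] and the HSK/HSW ratio 2.28 [2.05, 2.54]. A neighbouring cluster led by Plvap and Gpihbp1, which no single class could name and which held 19, 26, 13 and 6 cells, had 1 positive cell in each of NW, NK and HSW. With it included, the HSW/NW ratio was 3.03, the HSK/NK ratio 14.02 and the HSK/HSW ratio 1.57 for G2/M. The S phase sum was then 589, 454, 361 and 411 CPM, a HSW/NW ratio of 0.612, and it was 0.720 without the haemoglobin cells. The size of the HySu ratio thus depends on these few cells, and its direction was the same with them. With doublets marked by Scrublet alone, the HSK/NK ratio was 10.2.

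Interstitial macrophages had their highest summed levels in NW, counted without thinning. The G2/M sum was 877 CPM (NW), 602 (NK), 185 (HSW) and 327 (HSK), a HSW/NW ratio of 0.211 [0.177, 0.249]. The S phase sum was 914, 768, 337 and 503 CPM, a ratio of 0.369 [0.322, 0.422]. In HSW/NW all 15 measured G2/M genes and 12 of 14 measured S phase genes were lower, where 41.2% of all genes were lower in this class. HSW held 173 G2/M and 316 S phase UMIs over all members, against 673 and 701 in NW. Genes therefore passed the 20-UMI filter mainly through NW, where they were high, and nothing is drawn from these counts. Ube2c had 72, 26, 3 and 8 UMIs, a HSW/NW ratio of 0.03 [0.01, 0.10]. Mcm6, a helicase subunit, had 78.2, 87.1, 12.8 and 34.1 CPM, and Uhrf1 had 43.0, 23.0, 5.34 and 7.06. Both were low in HSW and HSK. Tyms stayed level here, at 20.9, 20.5, 24.6 and 25.9 CPM. G2/M positive cells were 8.33%, 8.25%, 2.26% and 4.08% of the class, 23 cells in all. Against HSW, HSK was higher in both sums (1.77 and 1.49).

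Type 2 dendritic cells had more G2/M RNA in HSK than in the other libraries. The G2/M sum was 653 CPM (NW), 698 (NK), 850 (HSW) and 1565 (HSK), and the S phase sum 698, 820, 424 and 621. In HSK/HSW 17 of 23 measured G2/M genes and 8 of 17 S phase genes were higher, where 10.6% of all genes were. Cdk1 had 17.8, 12.9, 23.7 and 76.9 CPM (3.25 [2.03, 5.37] for HSK/HSW), and Prc1 had 19.9, 21.5, 20.8 and 71.2 (3.42 [2.07, 5.84]). Both stood out in HSK alone. Mki67 was lowest in NK, at 118, 73.1, 118 and 137 CPM, and E2f1 was lowest in HSK, at 22.0, 22.6, 17.98 and 4.59. The cluster led by Mgl2 and Ccl17, which had the larger G2/M level in 3 of 4 libraries, made up 33.0%, 38.2%, 29.3% and 62.5% of the class. Within it the G2/M sum was 546, 783, 1472 and 1841 CPM.

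Neutrophils and B cells each held a cluster with more and a cluster with less G2/M RNA. The neutrophil G2/M sum was 260 CPM (NW), 424 (NK), 712 (HSW) and 1250 (HSK). The cluster led by Camp, Ngp and Ltf made up 7.51%, 16.6%, 40.7% and 52.2% of neutrophils, and within it the sum was 1890, 1750, 1766 and 2246 CPM. The sum in the cluster led by Retnlg and Cxcr2 was 141, 172, 90.0 and 226 CPM, and the class sum and the share of the first cluster ranked the libraries alike. The B cell G2/M sum was 517, 513, 638 and 1535 CPM, with the HSK value from 31 cells, of which 8 were positive. Within the B cell cluster led by Ms4a1 and Ly6d the sum was 1297, 1176, 928 and 2847 CPM, and that cluster made up 39.0%, 38.5%, 64.5% and 51.6% of the class. Within the cluster led by Ighd it was 128, 127, 143 and 299 CPM, so both clusters were highest in HSK.

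Genes that surround the members in the cycle were counted from further lists. In alveolar macrophages, HSW against NW, 21 of 29 other S phase genes (such as polymerase and repair factors) and 13 of 39 other G2/M genes were lower, with 0 and 1 higher, where 17.8% of all genes were lower. Of the genes of cell cycle entry (D cyclins, CDK4, CDK6, CDK2, Myc and Cdc25a), 4 of 8 were lower, and of the inhibitors (Cdkn1 and Cdkn2 families, Btg2 and Rb family) 1 of 10. In HSK against HSW, 12 of 29 other S phase and 15 of 39 other G2/M genes were higher and none was lower, where 7.15% of all genes were higher. Of the 8 entry genes none was called, and of 11 inhibitors 1 was higher. The pairs in T and NK cells are given as HSW/NW, NK/NW, HSK/HSW and HSK/NK. Other G2/M genes higher there were 20 of 37, 22 of 39, 18 of 37 and 19 of 38. Lower were 2, 0, 2 and 4. Of all genes, 9.47%, 12.5%, 12.5% and 12.5% were higher and 36%, 7.69%, 21.2% and 47% lower. Of the entry genes there, 5 of 8 were lower and none higher in HSK/NK, where 47% of all genes were lower. In endothelium, HSW against NW, 8 of 19 other G2/M genes were higher and 1 lower. Of 10 inhibitors, 5 were higher and 1 lower, where 16.6% of all genes were higher and 20% lower. NW held 58 endothelial cells against 277 in HSW, so sparse genes could pass the 20-UMI filter mainly through HSW. As for the members, nothing is drawn from these HSW/NW counts. In HSK against HSW, 13 of 28 other G2/M genes were higher and 1 lower, where 7.98% of all genes were higher and 11.3% lower. In interstitial macrophages 17 of 24 other G2/M genes were lower and none higher in HSW against NW, where 41.2% of all genes were lower. The limit of the 20-UMI filter given for the members of that class holds for this count too. In cDC2 15 of 27 were higher and 1 lower in HSK against HSW, where 10.6% of all genes were higher and 19.8% lower.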

How the data were processed

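Whole lungs were profiled with the Singleron GEXSCOPE microwell kit on polyA RNA, after digestion for 15 min at 37 °C, per the labels' protocols. The deposited values are raw UMI counts per gene and cell. The submitters' processing notes name STAR 2.6.1a and featureCounts 2.0.1, beside cutadapt 1.17 and Scanpy, and the builds GRCm38 and mm10; their settings and strand option are not given in the sources used here. From these counts, cells with at least 200 genes and at most 20% mitochondrial UMIs were kept, which removed at most 1 cell per library. Cells were clustered in Scanpy 1.11.5 (2000 variable genes, 40 components, 20 neighbours, Leiden resolution 1, then 2). The first clustering left out the genes of all cell cycle lists and the histone genes. The second left out 605 genes, which were these and the genes that correlated above 0.1 with the summed members. Cells were removed as mixed where the genes of a second lineage had at least 3 UMIs and over 0.15 of their level in that lineage's own cluster. Scrublet called only 1 to 30 cells per library, too few to have worked on its own. Clusters were named by fixed markers, of which 1 of 140 was absent. The name erythroid was replaced afterwards by that of the leading gene, Prss34.

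The members' UMIs were summed over cells of a class and given as CPM of the class total, since cells are not replicates. Intervals are exact Poisson, binomial or conditional binomial at 95% and cover counting error only. Where 0 cells were positive, the share allowed was taken as 3 of the cells counted. This approximation lies below the exact 95% limit, which was 3.30% for alveolar type 1 cells and 4.51% for plasmacytoid dendritic cells. Classes with at least 30 cells in both libraries of a pair were compared, and each member was called at 1.5-fold with at least 20 UMIs. TMM factors came from edgeR 4.0.16 and were used for scaling only. The scripts were tested on simulated data. With 1 library per group no test was run. All 44 members are accounted for, and those named in a comparison are mainly the up to 3 of each phase with the largest ratio whose interval excluded 1; others were chosen after their values were seen, to show levels or exceptions. The members and lists were chosen with earlier results of these data known. The thresholds for mixed cells, the resolution, the genes left out of clustering and the naming rules were set after seeing clusters. Neutrophils had been planned as the background of non-dividing cells, but their class held an immature cluster, so the Retnlg and Cxcr2 cluster and alveolar type 2 cells were used. Alternatives covered scaling, thinning, doublet removal, UMI minimums, the fold and the clustering.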

Additional observations from a re-analysis of the deposited data

Results flagged for a closer look

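In 4 cases the counting intervals of matching ratios lay on opposite sides of 1, and none of these differences was tested, since each group is 1 library. In interstitial macrophages the knockout was lower than wild type in normoxia and higher under HySu, with G2/M sums at a ratio of 0.686 [0.608, 0.773] for NK/NW and 1.77 [1.46, 2.15] for HSK/HSW, and S phase sums at 0.840 [0.752, 0.939] and 1.49 [1.29, 1.73]. With TMM scaling these were 0.654 and 1.80, and 0.801 and 1.51. The lower normoxia level of the knockout was not seen in thinned cells. There 8 cells were G2/M positive in each of NW (8.33%) and NK (8.25%). They held 24.9 and 27.1 G2/M UMIs per positive cell, and other cells 0.25 and 0.461. S phase UMIs were 13.75 per positive cell in both, and 2.03 and 1.99 per other cell. Under HySu only 3 (HSW) and 4 (HSK) cells were positive. In classical monocytes the S phase ratio was 0.906 [0.847, 0.968] for NK/NW and 1.14 [1.01, 1.28] for HSK/HSW, and with TMM scaling the latter was 1.10 [0.976, 1.24], whose interval includes 1. In B cells HySu was lower than normoxia for wild type and higher for the knockout, with S phase ratios of 0.836 [0.732, 0.952] for HSW/NW and 1.62 [1.38, 1.89] for HSK/NK, the latter with only 31 cells in HSK. With TMM scaling these were 0.993 [0.870, 1.13] and 1.88 [1.60, 2.20], so the wild-type ratio lay at 1 and its median gene had a log2 ratio of -0.33.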

How the results depend on the processing

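No paired analysis was possible because each group is 1 library. Alternatives were run on 30 summed ratios, which cover all pairs in alveolar macrophages, T and NK cells and endothelium. Also covered were HSW/NW and HSK/HSW in interstitial macrophages and, for G2/M only, in cDC2. Neutrophils, B cells and classical monocytes were not among them. The alternatives on haemoglobin and the unnamed cluster were run in endothelium only. None of the 30 ratios whose interval excluded 1 crossed to the other side of 1. Some endothelial ratios whose interval included 1 did. Over all 108 summed ratios, with TMM scaling alone, 5 of the 80 whose interval excluded 1 crossed it: 0.758 to 1.08 in cDC2 (S phase, HSK/NK), 0.894 to 1.10 in cDC1 (S phase, HSW/NW), 0.834 to 1.12 (G2/M, HSW/NW) and 0.677 to 1.002 (S phase, HSK/NK) in alveolar type 2 cells, and 0.655 to 1.43 in ciliated cells (G2/M, HSK/NK). The cause of the shifts below was not tested. Ratios are given as HSW/NW, NK/NW, HSK/HSW and HSK/NK where all are given. Clustering with the cell cycle genes gave alveolar macrophage S phase ratios of 0.605, 1.09, 1.29 and 0.713, G2/M ratios of 0.717, 1.16, 1.12 and 0.691, and a cDC2 G2/M HSW/NW ratio of 2.46. TMM scaling gave S phase ratios in alveolar macrophages of 0.667 (HSW/NW), 1.11 (NK/NW) and 0.916 (HSK/NK), and G2/M ratios of 0.901, 1.36 and 0.954. In T and NK cells it gave 1.64, 1.39 and 1.65 for S phase and 2.01, 1.54 and 2.11 for G2/M in the same pairs, and for HSW/NW it gave 1.60 in cDC2 (G2/M), and 0.500 (S phase) and 0.285 (G2/M) in interstitial macrophages. Using thinned UMIs gave alveolar macrophage S phase ratios of 0.593 (HSW/NW), 1.38 (HSK/HSW) and 0.707 (HSK/NK) and G2/M ratios of 0.668, 1.28, 1.29 and 0.677. It gave T and NK cell G2/M ratios of 1.51 (HSW/NW), 1.79 (NK/NW) and 1.40 (HSK/NK), S phase ratios of 1.69 (NK/NW) and 1.20 (HSK/NK), and cDC2 G2/M ratios of 1.52 (HSW/NW) and 2.27 (HSK/HSW). Keeping only cells above 4726 UMIs gave alveolar macrophage G2/M ratios of 1.46 (NK/NW) and 0.757 (HSK/NK), T and NK cell G2/M ratios of 1.56, 1.73, 1.53 and 1.38, S phase ratios of 1.54 (NK/NW), 1.33 (HSK/HSW) and 1.19 (HSK/NK), and an endothelial G2/M HSK/HSW ratio of 1.64. With Scrublet calls alone, G2/M ratios were 1.35 (NK/NW) and 0.801 (HSK/NK) in alveolar macrophages, 1.76 (HSW/NW) and 1.82 (HSK/NK) in T and NK cells, and 1.46 (NK/NW) and 10.2 (HSK/NK) in endothelium, and S phase ratios were 1.45 (T and NK, HSK/NK) and 1.24 (interstitial macrophage, HSK/HSW). With no doublet removal they were 1.77 (HSW/NW) and 1.80 (HSK/NK) in T and NK cells, 1.36 (NK/NW), 2.03 (HSK/HSW) and 11.9 (HSK/NK) in endothelium, and 1.24 for interstitial macrophage S phase (HSK/HSW). Leaving out endothelial cells with haemoglobin, chosen after seeing the data, gave S phase ratios of 0.720 (HSW/NW) and 1.15 (HSK/HSW) and a G2/M ratio of 2.28 (HSK/HSW). Adding the unnamed endothelial cluster, also chosen after seeing the data, gave S phase ratios of 0.612 (HSW/NW), 0.772 (NK/NW) and 1.14 (HSK/HSW) and G2/M ratios of 3.03 (HSW/NW), 1.57 (HSK/HSW) and 14.02 (HSK/NK).

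Counts of called members moved most often at 2-fold, in 15 of 21. There alveolar macrophages had 8 S phase and 0 G2/M genes lower in HSW/NW, 1 G2/M gene higher in NK/NW, 5 S phase and 0 G2/M genes higher in HSK/HSW, and 0 S phase and 1 G2/M gene lower in HSK/NK. T and NK cells had 3 S phase and 7 G2/M genes higher in HSW/NW, 2 and 1 in NK/NW, 1 and 4 in HSK/HSW, and 3 and 8 in HSK/NK. TMM scaling gave 1 G2/M gene lower in HSW/NW, 5 higher in NK/NW, and 1 S phase and 2 G2/M genes lower in HSK/NK in alveolar macrophages, and 12 S phase genes higher in HSW/NW in T and NK cells. Scrublet alone gave 5 alveolar macrophage G2/M genes higher in NK/NW and 10 T and NK cell S phase genes in HSK/HSW, where no doublet removal gave 9. Clustering with the cell cycle genes gave 4 G2/M genes higher in HSK/HSW and 10 lower in HSK/NK in alveolar macrophages, and cells above 4726 UMIs gave 4 S phase genes higher in HSK/NK in T and NK cells. At 50 UMIs or more, fewer genes could be called, with 6, 7 and 5 endothelial G2/M genes higher, 6 interstitial macrophage G2/M genes lower and 10 cDC2 G2/M genes higher. With at least 10 UMIs all 21 counts lay within 1.5 times of those reported.

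Positive shares followed the threshold. With at least 2 genes, G2/M shares were 12.1% in alveolar macrophages, 39.5% in T and NK cells, 13.7% in cDC2, 38.3% in plasma cells and 0.900% in alveolar type 2 cells, and S phase shares 40.0% and 54.9% in alveolar macrophages and T and NK cells. With at least 5, G2/M shares were 4.30% in alveolar macrophages, 28.3% in T and NK cells, 13.3% in cDC1, 17.5% in plasma cells and 0.0750% in alveolar type 2 cells, and S phase shares 11.9% and 28.2%. Clustering with the cell cycle genes gave 1.39% (G2/M) and 20.1% (S phase) of alveolar macrophages, and no thinning gave 13.1% and 46.2%. The T and NK cell G2/M share was 30.5% with no doublet removal and 37.4% above 4726 UMIs, and the alveolar type 2 share was 0.0803% with Scrublet alone. The endothelial normoxia values rest on 23 G2/M UMIs in each library.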
